A study of Mus musculus with 6 samples.

Results

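The genes described here are 40 genes of the G1/S transition and of DNA replication, fixed as a list by gene symbol, out of 50763 gene symbols in the count table. All 40 symbols were found, and all 40 passed the filter on low counts that left 19313 genes for testing. Their transcripts were measured by bulk RNA sequencing in CD34- KSL cells sorted from mouse bone marrow, a fraction that lacks lineage markers and surface CD34, carries Kit and Sca-1, and is enriched for long-term haematopoietic stem cells. EGFR-DN libraries (n = 3) came from Tal1-tTA+/TRE-EGFR-tr+ mice given no doxycycline, which made, in addition to wild-type epidermal growth factor receptor (EGFR), a truncated EGFR whose cytoplasmic tyrosine kinase domain is deleted. EGFR-WT libraries (n = 3) came from mice of the same transgenic genotype that drank 0.2 g/L doxycycline and made the wild-type receptor only. Both groups thus carried both transgenes, and the truncated receptor cannot be told apart from the absence of doxycycline. The activator tTA was driven by Tal1, a gene of blood stem cells and early blood lineages, so the transgene need not be confined to the sorted cells. Age, sex and the number of animals behind each library are not given in the labels.

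Before a cell copies its DNA, the origin recognition complex with Cdc6 and Cdt1 loads the ring-shaped MCM helicase onto chromatin in G1, a step called licensing. At the G1/S transition, cyclin E with Cdk2 and the E2F transcription factors raise the genes for licensing, for the fork and for nucleotide supply, and Cdc45 and GINS then switch the helicase on. Most long-term stem cells are quiescent, and entry into cycle is accompanied by induction of these genes, so their transcripts are widely read as a sign of how much of a population is in or near S phase. In bulk RNA, more cells in cycle and more RNA per cycling cell cannot be told apart.

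The 40 genes were well covered. Total counts per library were between 24073133 and 36032428, and the lowest count of any of the 40 genes in any library was 199 (Gins1 in EGFR-DN replicate 3). Egfr, as a check of the labels, stood at 117, 135 and 50.3 CPM in EGFR-DN libraries and at 0.191, 0.160 and 0.237 CPM in EGFR-WT libraries. CPM are counts per 1e+06 counts, with library totals adjusted by the trimmed mean of M-values (TMM) method. EGFR-DN replicate 3 stood apart: the share of 8 rRNA-like genes was 25.4%, against 4.71% to 6.15% elsewhere, and that of 90 ribosomal protein genes was 0.921%, against 2.52% to 2.73%. Fold changes and counts over lists are therefore given with and without that library. The transcripts of the sort markers Kit and Ly6a, which encodes Sca-1, were present in every library, at 736 to 1962 and 46.7 to 70.7 CPM in EGFR-DN libraries and at 771 to 806 and 50.8 to 78.4 CPM in EGFR-WT libraries. The Cd34 transcript was also present, at 569, 534 and 378 CPM in EGFR-DN libraries and 318, 410.3 and 404 CPM in EGFR-WT libraries, although the sort selected against surface CD34.

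No G1/S or replication gene passed the test between EGFR-DN and EGFR-WT, by the quasi-likelihood test of edgeR with Benjamini-Hochberg adjustment over all genes at a threshold of 0.05. The smallest adjusted p among the 40 was 0.690. At this threshold 0.00518% of all genes passed, which was Egfr alone. None of the 40 had an unadjusted p under 0.05, against 6.69% of all genes, and none passed in DESeq2, where 0.775% of all genes passed, or in limma-voom, where no gene did. Log2 fold changes (EGFR-DN minus EGFR-WT) were above 0 for 23 of the 40 genes and below 0 for 17, against 51% above 0 among all genes. Their median was 0.03, against 0.01 over all genes. All 3 EGFR-DN libraries lay above all 3 EGFR-WT libraries for 6 of the 40 genes (Cdc6, Mcm3, Pola2, Rrm1, Chaf1a and Uhrf1), against 9.21% of all genes. The reverse held for none of the 40, against 8.72% of all genes.

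Without EGFR-DN replicate 3, the log2 fold change was above 0 for 38 of the 40 genes, against 48.9% of all genes. The median was 0.16, a 1.12-fold higher level in EGFR-DN, against -0.01 over all genes. The exceptions were Cdc45, at -0.09, and Rfc3, at -0.01. Still none of the 40 passed the test, while 0.286% of all genes did. The smallest adjusted p was 0.293 by edgeR, for Mcm5, and 0.114 by DESeq2, where 5.51% of all genes passed. At an unadjusted p under 0.05, edgeR gave 6 of the 40 as higher (Cdt1, Mcm3, Mcm5, Mcm7, Prim1 and E2f1) and none as lower, against 6.64% and 6.99% of all genes, and DESeq2 gave 9 as higher, against 6.55% of all genes. Both remaining EGFR-DN libraries lay above all EGFR-WT libraries for 15 of the 40 genes, against 16.3% of all genes, and below them for none, against 15.8%.

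The upward shift in that comparison leaned on EGFR-DN replicate 1 and on EGFR-WT replicate 1. EGFR-DN replicate 1 was above every EGFR-WT library for 32 of the 40 genes, against 29.9% of all genes. EGFR-DN replicate 2 was above every EGFR-WT library for 15 genes, against 27.4% of all genes, inside their range for 23 and below it for 2. EGFR-WT replicate 1 was the lowest of the 5 libraries for 32 of the 40 genes, against 25% of all genes. The median of the 40 genes over the EGFR-WT mean, in log2, was 0.23, 0.09 and -0.27 in EGFR-DN libraries and -0.10, 0.06 and 0.04 in EGFR-WT libraries. Leaving out EGFR-WT replicate 1 as well gave a median log2 fold change of 0.11 with 36 genes above 0, and leaving out EGFR-DN replicate 1 as well gave 0.09 with 33 above 0. None of the 40 passed in either, nor reached an unadjusted p under 0.05, while 0.587% and 0.024% of all genes passed.

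**Figure D1:**
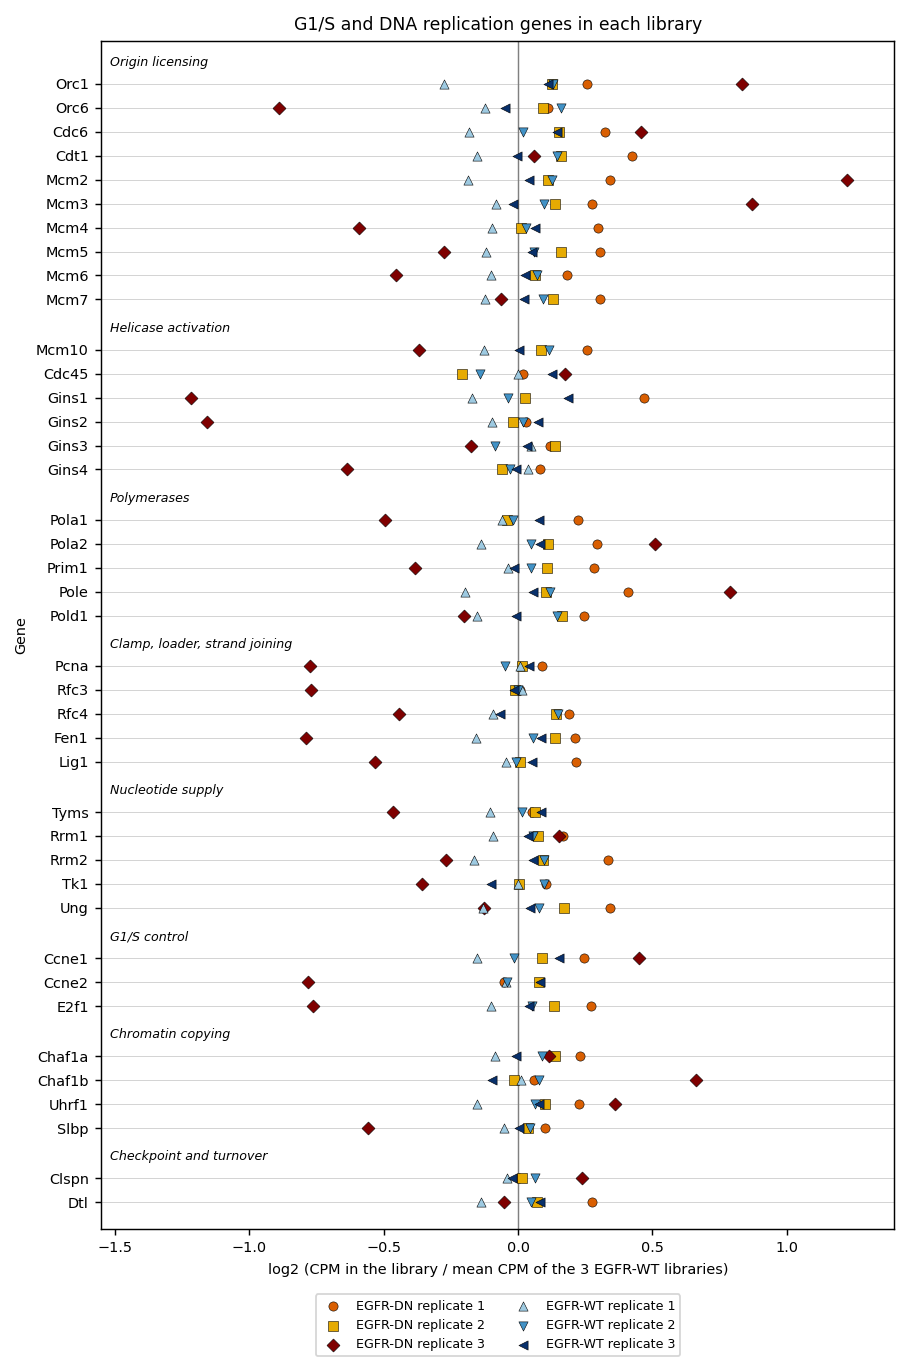
Each row is a gene of the 40, by role, and each symbol a library, placed by the log2 of its CPM over the mean CPM of the 3 EGFR-WT libraries. EGFR-DN replicate 3 (dark red diamonds) lies farthest out on either side, from Mcm2 on the right to Gins1 and Gins2 on the left. Apart from it, EGFR-DN replicate 1 is mostly rightmost and EGFR-WT replicate 1 leftmost.

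The 95% intervals were fitted gene by gene, without adjustment for the number of genes, and set no limit on the joint shift of the 40. Without EGFR-DN replicate 3, the 95% intervals of the 40 genes ran from -0.36 (the lower end for Cdc45) to 0.63 (the upper end for Gins1), and 38 lay wholly within a 1.5-fold change in either direction. With all 6 libraries they reached 1.37 (the upper end for Mcm2), and 19 lay within that limit. The median standard error (SE) of a log2 fold change was 0.20 with all 6 libraries and 0.09 without EGFR-DN replicate 3. The median coefficient of variation of the 40 genes was 22.2% in EGFR-DN libraries and 6.87% in EGFR-WT libraries, close to the 24.6% and 7.04% over all genes averaging at least 5 CPM.

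**Figure D2:**
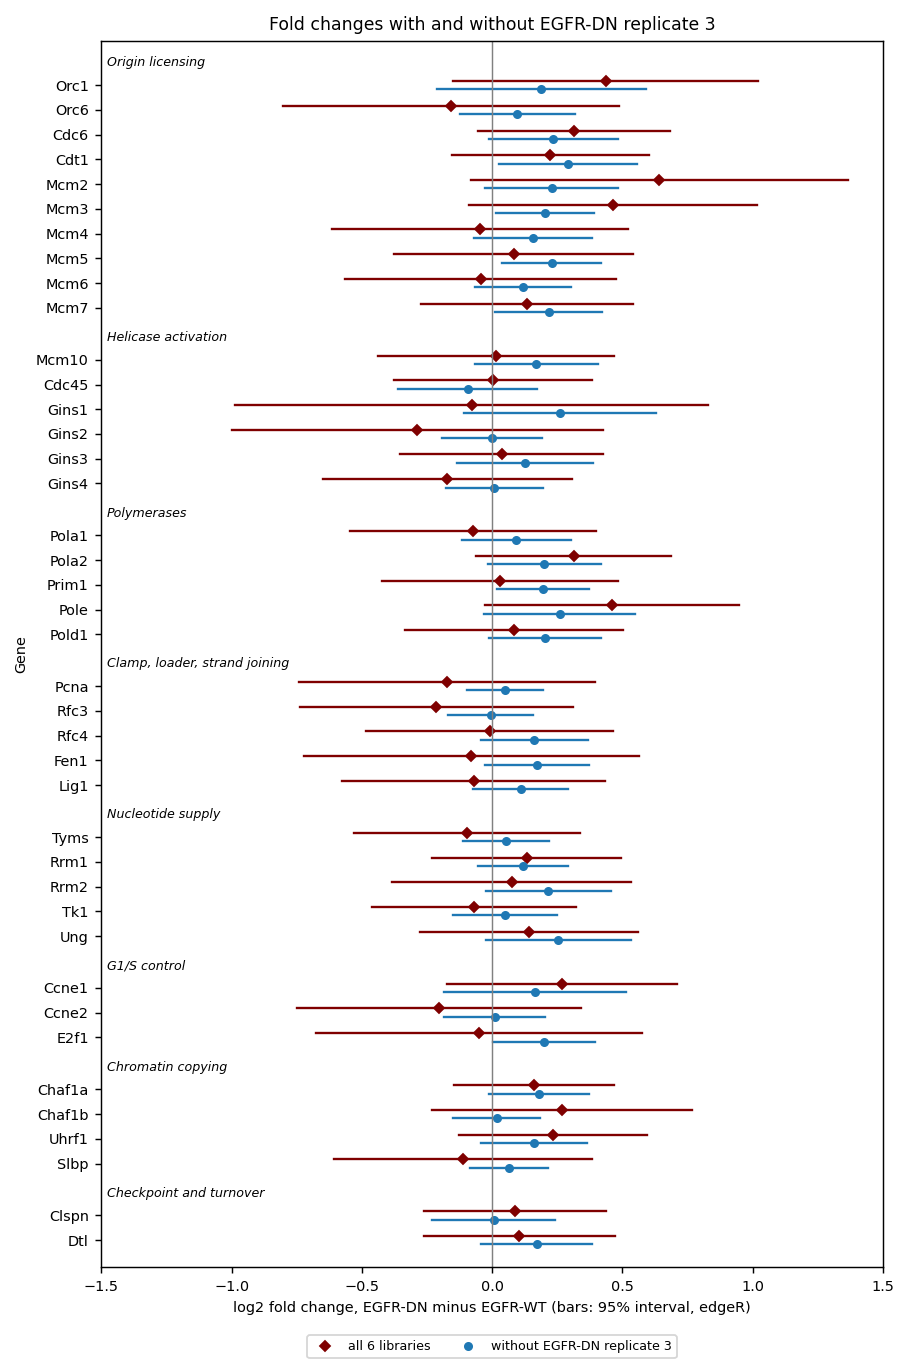
Log2 fold changes of the 40 genes, EGFR-DN minus EGFR-WT, with 95% intervals from edgeR, for all 6 libraries (diamonds) and without EGFR-DN replicate 3 (circles). The intervals with all 6 libraries all cross 0, and without EGFR-DN replicate 3 the estimates draw in to between -0.09 and 0.29.

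The promoters of 4 MCM genes are shown because these subunits of a single helicase stood at different levels in EGFR-DN replicate 3, with Mcm2 and Mcm3 high and Mcm5 and Mcm6 low. These 4 were picked for those values and do not stand for the list. E2F factors are known to bind letters such as TTTCCCGC, TTTCGCGC, TTTGCCGC and TTTGGCGC, which were searched on both strands of the 250 bases upstream of each gene start in RefSeq (GRCm38.p6). Each window is written 5′ to 3′ along its gene, with matches in capitals.
Mcm2, chr6:88898781-88899030, minus strand: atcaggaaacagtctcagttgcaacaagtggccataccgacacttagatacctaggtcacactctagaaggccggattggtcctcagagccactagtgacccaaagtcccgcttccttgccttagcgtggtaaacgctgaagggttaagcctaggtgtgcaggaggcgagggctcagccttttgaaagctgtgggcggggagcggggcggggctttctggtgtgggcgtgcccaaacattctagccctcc
Mcm3, chr1:20820313-20820562, minus strand: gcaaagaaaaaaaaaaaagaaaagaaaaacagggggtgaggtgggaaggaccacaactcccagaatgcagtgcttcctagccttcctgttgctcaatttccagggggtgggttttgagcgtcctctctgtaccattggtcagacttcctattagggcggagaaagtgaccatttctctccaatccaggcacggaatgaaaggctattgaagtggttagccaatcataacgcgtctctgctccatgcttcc
Mcm5, chr8:75109259-75109508, plus strand: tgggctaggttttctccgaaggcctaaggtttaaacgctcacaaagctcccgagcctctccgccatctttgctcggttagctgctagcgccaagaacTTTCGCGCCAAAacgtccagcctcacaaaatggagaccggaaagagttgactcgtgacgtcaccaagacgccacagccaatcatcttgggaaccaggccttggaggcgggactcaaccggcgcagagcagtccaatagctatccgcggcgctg
Mcm6, chr1:128359706-128359955, minus strand: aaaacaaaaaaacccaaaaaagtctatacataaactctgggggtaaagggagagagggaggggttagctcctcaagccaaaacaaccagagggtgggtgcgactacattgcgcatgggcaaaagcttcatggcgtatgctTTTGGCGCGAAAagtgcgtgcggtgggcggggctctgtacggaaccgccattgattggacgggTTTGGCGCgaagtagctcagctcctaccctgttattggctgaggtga
Mcm5 held 2 overlapping matches, on opposite strands, and Mcm6 held 3, of which 2 overlapped. Mcm2 and Mcm3 held none in these windows, which says nothing of whether E2F acts on them. Of the 34 listed genes with a promoter in the table, 10 held a match (29.4%), against 2.16% of 27025 genes. These were Orc1, Cdc6, Mcm5, Mcm6, Mcm7, Gins3, Pola1, Rfc3, Uhrf1 and Dtl. The letters CCAAT, the core of the NF-Y site, were present in 61.8% of the 34 promoters, against 37.5% of all. Among the genes with a match, Orc1, Cdc6 and Uhrf1 stood at their highest of all libraries in EGFR-DN replicate 3. Mcm5, Mcm6, Gins3, Pola1 and Rfc3 stood at their lowest there, and Mcm7 and Dtl in between. EGFR-DN replicate 3 was above the mean of the other EGFR-DN libraries for 3 of the 10 genes with a match and for 8 of the 24 without, with median log2 ratios of -0.29 and -0.41. With EGFR-DN replicate 3 left out, the median log2 fold change was 0.17 for the 10 genes that held E2F-like letters and also 0.17 for the 24 that did not. The part of E2F in these levels was not tested.

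The 10 licensing genes had a median log2 fold change of 0.18 with all libraries and of 0.21 with EGFR-DN replicate 3 left out, when all 10 were above 0. Their summed level was 2072, 1847 and 1976 CPM in EGFR-DN libraries and 1589, 1824 and 1756 CPM in EGFR-WT libraries, so each EGFR-DN sum was above each EGFR-WT sum. In EGFR-DN replicate 3 that sum leaned on Mcm2 and Mcm3, since the median of the 10 genes over the EGFR-WT mean was -0.0021 in log2 there and 4 of them were at their lowest of the 6 libraries. No licensing gene passed the test in either comparison, with adjusted p of at least 0.690 and 0.293 by edgeR.

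Orc1, the large subunit of the origin recognition complex, had 10.6, 9.73 and 15.9 CPM in EGFR-DN libraries, against 7.37, 9.75 and 9.62 CPM in EGFR-WT libraries. EGFR-DN replicate 3 was highest and EGFR-DN replicate 2 lay just under the top of the EGFR-WT range. The log2 fold change was 0.44 (SE 0.25; edgeR adjusted p = 0.690), and 0.19 without EGFR-DN replicate 3. Orc6, its smallest subunit, showed another arrangement, with EGFR-DN replicate 3 far below every other library (29.8 CPM against 50.6 to 61.5 CPM).

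Cdc6, the loader that brings MCM to the origin complex, had 68.4, 60.8 and 75.2 CPM in EGFR-DN libraries, against 48.3, 55.5 and 60.5 CPM in EGFR-WT libraries. The groups did not overlap, but EGFR-DN replicate 2 and EGFR-WT replicate 3 nearly met. Its log2 fold change was 0.32 (SE 0.16; edgeR adjusted p = 0.690), and 0.24 without EGFR-DN replicate 3. Cdt1, the partner of Cdc6 in loading, had 66.8, 55.7 and 51.9 CPM in EGFR-DN libraries, against 44.8, 55.1 and 49.6 CPM in EGFR-WT libraries. Here only EGFR-DN replicate 1 was clearly above the EGFR-WT range and EGFR-DN replicate 3 fell inside it. The log2 fold change was 0.22 (SE 0.16; edgeR adjusted p = 0.696), and 0.29 without EGFR-DN replicate 3, the highest of the 40 in that comparison.

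The MCM2-7 genes encode the 6 subunits of the replicative helicase, which load as a ring of equal parts. Mcm2 had 245, 209 and 449.9 CPM in EGFR-DN libraries, against 169.6, 210.4 and 198 CPM in EGFR-WT libraries. The high value was that of EGFR-DN replicate 3 alone, and EGFR-DN replicate 2 lay within the EGFR-WT range. The log2 fold change was 0.64 (SE 0.31; edgeR adjusted p = 0.690), and 0.23 without EGFR-DN replicate 3. Mcm3 had 336, 305 and 507 CPM in EGFR-DN libraries, against 262, 296 and 273 CPM in EGFR-WT libraries. All EGFR-DN libraries were above all EGFR-WT libraries, and EGFR-DN replicate 3 was again far above the rest. Its log2 fold change was 0.46 (SE 0.23; edgeR adjusted p = 0.690), and 0.20 without EGFR-DN replicate 3.

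The other helicase subunits did not share that high level in EGFR-DN replicate 3. Mcm6 had 584, 537 and 376 CPM in EGFR-DN libraries, against 479.5, 541 and 524 CPM in EGFR-WT libraries. EGFR-DN replicate 3 was the lowest of all 6, and the log2 fold change was -0.04 (SE 0.22; edgeR adjusted p = 0.936), turning to 0.12 without it. Mcm7 had 270.0, 239 and 209 CPM in EGFR-DN libraries, against 201, 233 and 222 CPM in EGFR-WT libraries, so that the groups overlapped. Its log2 fold change was 0.13 (SE 0.17; edgeR adjusted p = 0.766), and 0.22 without EGFR-DN replicate 3. Mcm4 and Mcm5, chosen after their values were seen, completed the ring. Mcm4 had 216, 177 and 117 CPM in EGFR-DN libraries, against 164, 179 and 184 CPM in EGFR-WT libraries. Mcm5 had 216, 195 and 145 CPM in EGFR-DN libraries, against 161, 182 and 182 CPM in EGFR-WT libraries. In both genes EGFR-DN replicate 3 was the lowest library and EGFR-DN replicate 1 the highest.

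**Figure D3:**
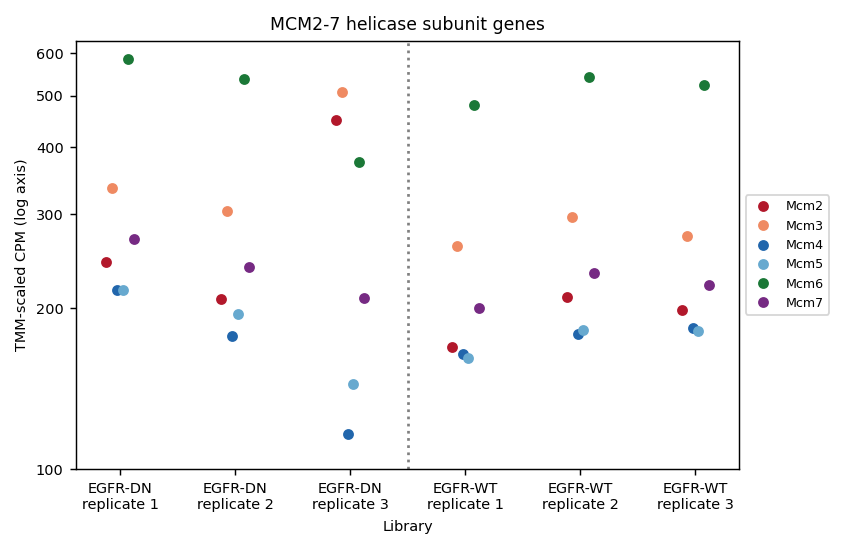
TMM-scaled CPM (log axis) of the 6 MCM2-7 genes in each library, EGFR-DN to the left of the dotted line and EGFR-WT to its right. In 5 libraries Mcm6 is the highest of the 6 genes, while in EGFR-DN replicate 3 Mcm3 (507 CPM) and Mcm2 (449.9 CPM) stand above Mcm6 (376 CPM).

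Ratios between subunits within a library do not depend on scaling between libraries. The ratio of Mcm2 to Mcm6 counts was 1.20 in EGFR-DN replicate 3, against 0.354 to 0.419 elsewhere. That of Mcm3 to Mcm6 was 1.35, against 0.522 to 0.575. Those of Mcm4, Mcm5 and Mcm7 to Mcm6 were much nearer to the other libraries, at 0.310 (others 0.330 to 0.370), 0.384 (0.336 to 0.370) and 0.555 (0.419 to 0.462). In the other 5 libraries the 6 genes thus kept closely similar proportions across both groups.

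The 6 genes of helicase activation had a median log2 fold change of -0.04, and of 0.07 without EGFR-DN replicate 3. None passed the test in either comparison, with edgeR adjusted p of at least 0.739 and 0.522. Cdc45, which joins MCM and GINS in the active helicase, had 28.5, 24.4 and 31.7 CPM in EGFR-DN libraries, against 28.2, 25.5 and 30.8 CPM in EGFR-WT libraries, which overlapped almost wholly. The GINS complex is made of the products of Gins1 to Gins4 in equal parts. Gins1 had 32.4, 23.9 and 10.1 CPM in EGFR-DN libraries, against 20.8, 22.8 and 26.7 CPM in EGFR-WT libraries, so that both the highest and the lowest value belonged to EGFR-DN. Gins2 had 39.2, 37.9 and 17.2 CPM in EGFR-DN libraries, against 35.9, 38.9 and 40.5 CPM in EGFR-WT libraries. EGFR-DN replicate 3 was lowest for all 4 GINS genes and for Mcm10, an initiation factor that helps the helicase to start. Cdc45, Gins1 and Gins2 were chosen for display after their values were seen.

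Of the 5 polymerase genes, 4 had a log2 fold change above 0 and all 5 did so without EGFR-DN replicate 3, with medians of 0.08 and 0.20. None passed the test. Pole, the catalytic subunit of the leading-strand polymerase, had the smallest unadjusted p of the 40 genes (0.0601). It had 66.3, 53.6 and 86.3 CPM in EGFR-DN libraries, against 43.6, 54.2 and 51.9 CPM in EGFR-WT libraries. EGFR-DN replicates 1 and 3 were above every EGFR-WT library, and EGFR-DN replicate 2 was inside their range. In log2, Pole differed by 0.46 (SE 0.21; edgeR adjusted p = 0.690), and 0.26 without EGFR-DN replicate 3. Pola2, the accessory subunit of the priming polymerase alpha, had 71.0, 62.6 and 82.6 CPM in EGFR-DN libraries, against 52.6, 60.0 and 61.3 CPM in EGFR-WT libraries. The groups did not overlap, by a small margin, and the log2 fold change was 0.31 (SE 0.16; edgeR adjusted p = 0.690), or 0.20 without EGFR-DN replicate 3. Pola1, the catalytic subunit of the same polymerase, the primase gene Prim1 and Pold1, the catalytic subunit of polymerase delta, were instead lowest in EGFR-DN replicate 3.

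The sliding clamp and strand-joining genes lay to the same side. With all 6 libraries all 5 had a log2 fold change below 0 (median -0.08), and without EGFR-DN replicate 3 it was above 0 for 4 (median 0.11). No gene passed, with edgeR adjusted p of at least 0.738 and 0.434. Pcna, the clamp that holds polymerases on DNA, had 150.1, 143 and 82.5 CPM in EGFR-DN libraries, against 142, 136 and 145 CPM in EGFR-WT libraries. EGFR-DN replicate 1 was just above the EGFR-WT range, EGFR-DN replicate 2 inside it and EGFR-DN replicate 3 far below it. Its log2 fold change was -0.17 (SE 0.24; edgeR adjusted p = 0.777). Without EGFR-DN replicate 3 it was 0.05, with a 95% interval of -0.10 to 0.19. Rfc3 and Rfc4, subunits of the clamp loader, Fen1, the flap nuclease that trims Okazaki fragments, and Lig1, the ligase that seals them, were likewise all lowest in EGFR-DN replicate 3. Their summed level with Pcna was 598, 555 and 337 CPM in EGFR-DN libraries and 512, 539.9 and 548 CPM in EGFR-WT libraries.

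The 5 genes of nucleotide supply summed to 590.3, 546 and 492 CPM in EGFR-DN libraries and to 483, 541 and 532 CPM in EGFR-WT libraries. Their median log2 fold change was 0.07, or 0.12 without EGFR-DN replicate 3, and none passed the test. Rrm1, the large subunit of ribonucleotide reductase, had 287, 269 and 284 CPM in EGFR-DN libraries, against 239, 265 and 262 CPM in EGFR-WT libraries. The groups did not overlap, EGFR-DN replicate 3 did not stand apart, and the log2 fold change was 0.13 (SE 0.15; edgeR adjusted p = 0.750) and 0.12 without that library. Rrm2, the subunit whose level varies most through the cell cycle, ranged from 92.0 to 139.8 CPM in EGFR-DN libraries and from 98.9 to 118 CPM in EGFR-WT libraries. The ratio of Rrm1 to Rrm2 was 3.08 in EGFR-DN replicate 3, against 2.05 to 2.42 in the other 5. Tyms (thymidylate synthase), Tk1 (thymidine kinase) and Ung (the uracil glycosylase that keeps uracil out of DNA) had log2 fold changes of -0.10, -0.07 and 0.14, and of 0.05, 0.05 and 0.25 without EGFR-DN replicate 3.

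The G1/S control genes pointed both ways. Ccne1, encoding cyclin E1, had 11.5, 10.3 and 13.2 CPM in EGFR-DN libraries, against 8.71, 9.57 and 10.8 CPM in EGFR-WT libraries. EGFR-DN replicate 2 overlapped the EGFR-WT range, and the log2 fold change was 0.27 (SE 0.19; edgeR adjusted p = 0.690), or 0.17 without EGFR-DN replicate 3. Ccne2, encoding cyclin E2, had 42.0, 46.1 and 25.4 CPM in EGFR-DN libraries, against 42.3, 42.4 and 46.2 CPM in EGFR-WT libraries. EGFR-DN replicate 2 was inside the EGFR-WT range, EGFR-DN replicate 1 just under it and EGFR-DN replicate 3 far under it, and the log2 fold change was -0.20 (SE 0.23; edgeR adjusted p = 0.746), or 0.01 with EGFR-DN replicate 3 left out. E2f1, an activating E2F factor, had 55.7, 50.7 and 27.2 CPM in EGFR-DN libraries, against 43.1, 47.9 and 47.6 CPM in EGFR-WT libraries. EGFR-DN replicates 1 and 2 were above all EGFR-WT libraries and EGFR-DN replicate 3 below them. The log2 fold change was -0.05 (SE 0.26; edgeR adjusted p = 0.939), and 0.20 without EGFR-DN replicate 3 (edgeR adjusted p = 0.358).

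Genes that copy chromatin with the DNA had a median log2 fold change of 0.20, or 0.11 without EGFR-DN replicate 3. Uhrf1, which carries DNA methylation over to the new strand, had 129.6, 119 and 142 CPM in EGFR-DN libraries, against 99.6, 115.6 and 116.8 CPM in EGFR-WT libraries. The groups did not overlap, and the log2 fold change was 0.23 (SE 0.15; edgeR adjusted p = 0.690), or 0.16 without EGFR-DN replicate 3. Chaf1b, a subunit of the histone chaperone CAF-1, had 86.7, 82.4 and 132 CPM in EGFR-DN libraries, against 83.9, 87.8 and 77.9 CPM in EGFR-WT libraries. EGFR-DN replicate 3 alone lay above the others, and the log2 fold change was 0.27 with it (SE 0.21; edgeR adjusted p = 0.702) and 0.02 without it. Chaf1a, the large CAF-1 subunit, did not follow it: its log2 fold change was 0.16, and 0.18 without EGFR-DN replicate 3. Slbp, which binds the stem-loop of histone mRNAs, had -0.11 and 0.06. The checkpoint adaptor Clspn and Dtl, the substrate receptor that directs Cdt1 to degradation in S phase, had 0.09 and 0.10, and 0.01 and 0.17 without that library. None of these genes passed the test.

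EGFR-DN replicate 3 thus split the 40 genes. It was below the mean of EGFR-DN replicates 1 and 2 for 28 genes and above it for 12, against 49.4% above among all genes. Against the EGFR-WT libraries alone, it was above all 3 for 13 genes (42.2% of all genes), below all 3 for 23 (42.1% of all genes) and between them for 4. It was the lowest of the 6 libraries for 23 of the 40 genes, against 38.4% of all genes, and the highest for 11, against 38.1%. Mcm2 was 1.99 times the mean of the other EGFR-DN libraries, Mcm3 1.58 times, Chaf1b and Orc1 1.56 times and Pole 1.44 times. At the other end Gins1 stood at 0.359 times, Gins2 at 0.447 times, Orc6 at 0.503 times, E2f1 at 0.512 times and Fen1 at 0.513 times. By role, the clamp and strand-joining genes were all 5 lower, helicase activation had 5 of 6 lower, nucleotide supply 4 of 5 and licensing 6 of 10. Subunits of the same complex therefore parted in this library: Mcm2 and Mcm3 from Mcm4 to Mcm7, and Chaf1b from Chaf1a. Genes with related roles also parted: Pole from Pold1, of a different polymerase, and Ccne1 from Ccne2, which encode alternative cyclins.

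Transcript length and base composition both moved with this split. Over the 40 genes, the log2 ratio of EGFR-DN replicate 3 to the other EGFR-DN libraries had a Spearman rho of 0.316 with the length of the transcript in the GENCODE M21 annotation, and over 10139 genes averaging at least 5 CPM rho was 0.483. The same measure between EGFR-DN replicates 2 and 1 gave -0.146 and -0.04. With the GC content of the transcript, rho was 0.282 over the 40 genes and 0.108 over all those genes. The points share libraries and depth, so these values are descriptions. The 12 genes that were higher had a median transcript length of 3022.5 nt and a median GC content of 51.5%, and the 28 that were lower had 2625.5 nt and 48.5%. The part of length, GC content or the rRNA-like share in the split was not tested.

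**Figure D4:**
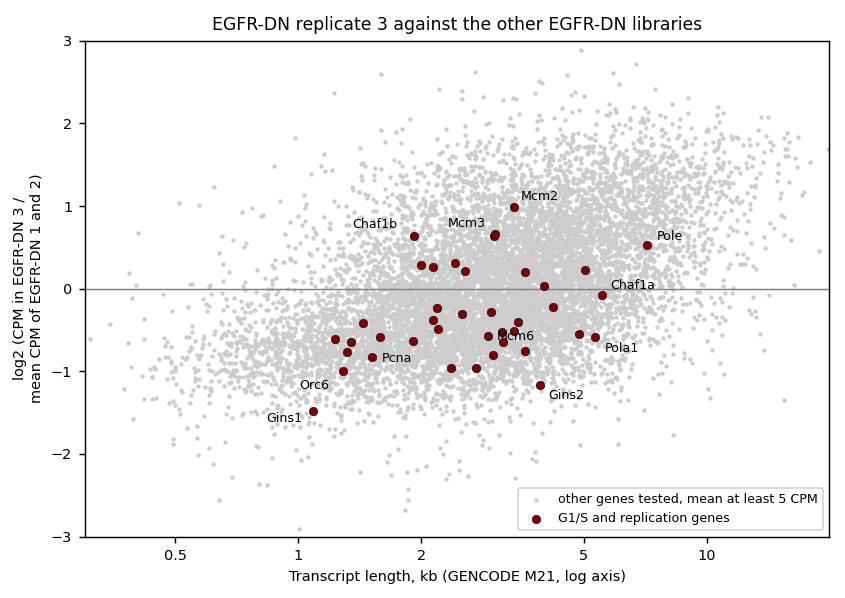
Log2 ratio of CPM in EGFR-DN replicate 3 to the mean of EGFR-DN replicates 1 and 2, against transcript length in kb (log axis), for the 40 genes (dark red) and other tested genes averaging at least 5 CPM (grey; points outside the axes are not drawn). The cloud of all genes rises with length (rho 0.483), and the 40 genes spread from Gins1 at the lower left to Mcm2 and Pole above 0.

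Levels were compared between genes as mean CPM per kb of transcript. Mcm6 was the most abundant of the 40, at 172 CPM per kb in EGFR-DN and 177 CPM per kb in EGFR-WT. In EGFR-DN Mcm3 came next, at 126 CPM per kb, but without EGFR-DN replicate 3 it was Slbp, at 112.2 CPM per kb, ahead of Mcm3 at 106 CPM per kb. In EGFR-WT Slbp (107), Pcna (92.9), Mcm3 (91.5) and Mcm7 (73.7 CPM per kb) came next. Orc1 was at 4.01 CPM per kb in EGFR-DN and 2.96 in EGFR-WT, the lowest level of the 40 in EGFR-WT. Neighbours such as Pcna and Mcm3 in EGFR-WT differed by less than the spread between libraries.

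Further genes of the same processes, on lists drawn up from textbook roles, held none that passed the test, with or without EGFR-DN replicate 3. Of 43 other replication genes, 24 had a log2 fold change above 0 and 19 below (median 0.03), and without that library 34 were above 0 and 9 below (median 0.09). Of 14 other nucleotide genes, 6 were above 0 and 8 below (median -0.06), and without it 8 and 6 (median 0.03). Of 19 other G1/S control genes, 10 were above 0 and 9 below (median 0.01), and without it again 10 and 9 (median 0.04). Of 19 G2/M genes, which mark the later phases of the cycle, 9 were above 0 and 10 below (median -0.02), and without it 16 and 3 (median 0.06). With EGFR-DN replicate 3 left out, the other replication and G2/M lists therefore leaned above 0, as the 40 genes did.

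Several of the genes with the smallest p on these lists stood apart in EGFR-DN replicate 3. Ticrr, which helps load Cdc45, had 35.96, 29.0 and 86.2 CPM in EGFR-DN libraries, against 21.3, 27.5 and 29.2 CPM in EGFR-WT libraries. Cad, which starts pyrimidine synthesis, had 107, 91.3 and 274 CPM in EGFR-DN libraries, against 76.1, 100.2 and 91.6 CPM in EGFR-WT libraries. Mki67, the proliferation marker Ki-67 with a very long transcript, had 315, 274 and 1126 CPM in EGFR-DN libraries, against 256, 233 and 278 CPM in EGFR-WT libraries. For all 3, EGFR-DN replicate 3 lay far above every other library and EGFR-DN replicate 2 lay inside the EGFR-WT range. Their log2 fold changes were 0.95, 0.82 and 1.16 (edgeR adjusted p = 0.690 each), and 0.31, 0.15 and 0.20 without EGFR-DN replicate 3. The others named by the same rule were Atad5 (0.54), Mcmbp (0.30), Dctd (-0.24), Dck (0.34), E2f8 (0.95), Foxm1 (0.53) and Cenpe (0.25), each at an edgeR adjusted p of 0.690. Without EGFR-DN replicate 3 they were at 0.25 (Atad5), 0.20 (Mcmbp), -0.35 (Dctd), 0.07 (Dck), 0.17 (E2f8), 0.21 (Foxm1) and 0.16 (Cenpe).

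Of the 43, 14, 19 and 19 genes of these lists, only E2f2 and E2f5 had an unadjusted edgeR p under 0.05, against 6.69% of all genes. E2f2, an activating E2F, had 16.5, 11.5 and 18.6 CPM in EGFR-DN libraries, against 9.69, 10.7 and 11.5 CPM in EGFR-WT libraries. E2f5, an E2F that acts mainly as a repressor, had 8.28, 10.4 and 12.4 CPM in EGFR-DN libraries, against 17.2, 13.1 and 14.6 CPM in EGFR-WT libraries. Neither pair of groups overlapped, EGFR-DN being higher for E2f2 and lower for E2f5, as for 9.21% and 8.72% of all genes. For E2f2, EGFR-DN replicate 2 and EGFR-WT replicate 3 all but met. The log2 fold changes of E2f2 and E2f5 were 0.54 (SE 0.22) and -0.54 (SE 0.21), with an edgeR adjusted p of 0.690 for both. Without EGFR-DN replicate 3 they were 0.39 and -0.69.

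Markers of other blood cells were read beside these genes. No marker passed the test with all 6 libraries. All 7 progenitor markers (Cd34, Flt3, Cd48, Satb1, Mpo, Cebpa and Irf8) had a log2 fold change above 0, with and without EGFR-DN replicate 3. They summed to 1795, 1641 and 1970 CPM in EGFR-DN libraries and to 800.1, 1093 and 1027 CPM in EGFR-WT libraries, which did not overlap. Granulocyte markers summed to 310, 314 and 221 CPM in EGFR-DN libraries and to 161, 184 and 147 CPM in EGFR-WT libraries, with 8 of 8 tested above 0, and 9 of 9 without EGFR-DN replicate 3. Erythroid markers summed to 1662, 1793 and 1653 CPM in EGFR-DN libraries and to 2376, 2048 and 1915 CPM in EGFR-WT libraries, lower in every EGFR-DN library, although 6 of 8 tested were above 0, and 6 of 9 without EGFR-DN replicate 3. Other lists were smaller or mixed. B cell markers summed to between 43.9 and 61.0 CPM in EGFR-DN and between 34.9 and 43.7 CPM in EGFR-WT (5 of 5 above 0 in both fits), and T and NK cell markers to between 165 and 258 CPM in EGFR-DN and between 113.8 and 157 CPM in EGFR-WT (3 of 4, and 4 of 5 without EGFR-DN replicate 3). Of 6 megakaryocyte markers 3 were above 0 in both fits, and of 6 stroma and endothelium markers 3, or 2 without EGFR-DN replicate 3. Of the 7 sort and stem markers 2 were above 0, and 0 without that library. Procr had 22.9, 32.4 and 15.1 CPM in EGFR-DN libraries, against 74.9, 43.0 and 50.4 CPM in EGFR-WT libraries. It was lower in every EGFR-DN library, as were 8.72% of all genes, with a log2 fold change of -1.25 (edgeR adjusted p = 0.690). Fold changes without EGFR-DN replicate 3 were, in log2, -1.02 (Procr), -0.83 (Mecom), -0.78 (Fgd5), -0.60 (Hlf), -0.45 (Slamf1), -0.26 (Ly6a) and -0.03 (Kit), and none passed. Without EGFR-DN replicate 3, edgeR called Satb1, Irf8, Ctsg, Camp and Itgam as higher and Col1a2 as lower in EGFR-DN among all these markers. In that fit 0.286% of all genes passed. In EGFR-DN replicate 3, Satb1, Irf8 and Itgam were also above every EGFR-WT library, and Camp and Col1a2 lay inside the EGFR-WT range. Ctsg lay below that range there, at 15.6 CPM. Camp was low, with at most 1.28 CPM in any library, and was not tested with all 6 libraries. The lineage-defining genes Ly6g, Cd3e and Pax5 were at or near 0, with at most 0.254 CPM in any library. EGFR-WT replicate 1, which was lowest for 32 of the 40 genes once EGFR-DN replicate 3 was left out, also had the lowest progenitor sum. The part of these markers in the small shift of the G1/S and replication genes was not tested.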

How the data were processed

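RNA from sorted CD34- KSL cells was turned into cDNA by oligo(dT) priming with a SMART-Seq v4 kit and into libraries with Nextera XT, per the labels' protocols. Nextera XT does not mark strand, and 13 of the 40 genes share exon bases with a gene on the opposite strand, so reads of such pairs cannot be told apart. The authors deposited 1 table of estimated counts by gene symbol that were not normalized. DRAGEN, R 4.3.1, DESeq2 1.40.2 and the build mm39 are listed in the submitters' processing notes; what each did, which annotation was used and whether counting used strand is not given in the sources used here. Whole counts had been assumed when the tests were planned, so the values were rounded. It had 0 columns of other samples.

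The 40 genes and the other lists were chosen with earlier results of these data known. Libraries were grouped by label and compared in edgeR 4.0.16 (R 4.3.3) by its two-sided quasi-likelihood test after filterByExpr and TMM scaling. SE is the size of the log2 fold change over the square root of F. The rule for values printed per library took the 10 genes of the 40 with the smallest p, the 5 most abundant, and Pcna, Ccne1, Ccne2, E2f1, Cdc6 and Mcm2. Of each other list it took the 3 with the smallest p. Other genes given in full (Mcm4, Mcm5, Cdc45, Gins1, Gins2) were chosen after their values were seen. E2f2 and E2f5 are among those 3. Alternatives were DESeq2 1.42.0 (size factors or Wald test), limma-voom (limma 3.58.1), library size alone, other filters, removal of rRNA-like genes, a replicate block and each library left out. Quality weights, DESeq2 without EGFR-DN replicate 3 and the pairs of libraries left out were added after the data were seen.

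No pair of libraries was a duplicate (smallest chi-square per degree of freedom 16.3). Nothing in the labels says that replicates were separate animals, and p-values then cover only the spread among these libraries, which may be technical. In the lowest library 3 counts correspond to 0.125 CPM, a floor that covers counting error only. Data were also simulated with an equal spread in all libraries, and so with no library that stood apart. On these, the fit to all 6 libraries recovered 44% of genes changed 1.5-fold and 100% of those changed 2.5-fold (19047 genes). The fit without EGFR-DN replicate 3 recovered 28% and 100% (19199 genes). In the real data the median SE of the listed genes was larger with all 6 libraries (0.20) than without EGFR-DN replicate 3 (0.09). The simulated spread was a fixed value for both fits and was not fitted to these libraries. The simulated percentages therefore do not give the share of such changes that either real fit could detect. Transcript lengths come from GENCODE M21 (GRCm38) and promoters from RefSeq (GRCm38.p6), since no mm39 genome was used here; gene coordinates of the count table are not printed.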

Additional observations from a re-analysis of the deposited data

How the results depend on the processing

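No gene of the 40 passed the threshold under any of the 18 alternatives, and the smallest adjusted p among them ranged from 0.114 (DESeq2 without EGFR-DN replicate 3) to 0.912 (edgeR without EGFR-WT replicate 1). Over all genes, edgeR called 1 gene as higher in EGFR-DN and 0 as lower. DESeq2 called 99 as higher and 36 as lower, limma-voom 0 in either direction, and limma-voom with library quality weights 145 and 43, with a weight of 0.0844 for EGFR-DN replicate 3 against 1.29 to 1.90 for the others. Leaving out single libraries gave 0 higher (any EGFR-WT library left out) to 46 higher and 11 lower (without EGFR-DN replicate 3), and DESeq2 without EGFR-DN replicate 3 gave 500 and 384. Without EGFR-DN replicate 3, leaving out EGFR-WT replicate 1 as well gave 91 higher and 24 lower, and leaving out EGFR-DN replicate 1 as well gave 5 higher and 0 lower, with the lone EGFR-DN library assumed to vary like the others. The median log2 fold change of the 40 genes, 0.03, ranged from -0.06 without EGFR-DN replicate 1 to 0.17 by DESeq2 without EGFR-DN replicate 3. With library size alone it was -0.06 with 15 genes above 0, while the median of all genes moved to -0.10, and with no count filter it was -0.0012 with 19 above 0. Of the named genes, 4 changed sign with quality weights: Mcm6 to 0.095, Pcna to 0.031, Ccne2 to 0.0022 and E2f1 to 0.17. DESeq2 without EGFR-DN replicate 3 gave them 0.12, 0.052, 0.014 and 0.20. With libraries left out, log2 fold changes ranged from -0.18 to 0.12 for Mcm6, -0.33 to 0.057 for Pcna, -0.38 to 0.075 for Ccne2, -0.25 to 0.20 for E2f1 and -0.019 to 0.38 for Chaf1b. The cause of these changes was not tested. Deviations of same-numbered libraries from their group means correlated at 0.00797, 0.0220 and 0.0815 over 12200 genes. These values cannot settle whether replicate numbers pair the libraries, since EGFR-DN replicate 3 enters the mean behind every EGFR-DN deviation. With a replicate block 1 gene was called, 0 of the 40, and the median of the 40 was 0.02.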
